A study of Mus musculus with 8 samples.

Results

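The genes described here encode the translation initiation and elongation factors of the mouse. They were taken by name, as every gene of the deposited table whose symbol starts with Eif or Eef followed by a digit, leaving out the sex-linked Eif2s3x and Eif2s3y, which gave 65 of 23420 genes. RNA was sequenced from cranial mesenchyme, the loose tissue between brain and surface ectoderm that forms skull bone and dermis, of wild-type C57BL/6 embryos at E12.5, in mid-gestation. All libraries came from this strain, genotype and stage, and the comparison was between 4 libraries of early migrating mesenchyme (EMM) and 4 of supraorbital mesenchyme (SOM), each made from a pool of 4 to 5 embryos. Brain and surface ectoderm were taken off after dispase digestion, per the labels' protocols, and the labels do not say whether EMM and SOM pools shared embryos. The comparison asks which of these genes differ in RNA level between the 2 populations.

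Translation begins when the factor eIF2 carries the initiator tRNA to the small ribosomal subunit, and eIF1, eIF1A, eIF3 and eIF5 hold that complex until a start codon is found. The cap of the mRNA is bound by eIF4E, the scaffold eIF4G and the helicase eIF4A, together called eIF4F, and the eIF4E-binding proteins block this assembly when the kinase mTORC1 is inactive. After the subunits join, eEF1A delivers aminoacyl tRNAs, its exchange factor eEF1B reloads it with GTP, and eEF2 moves the ribosome along the mRNA. Supply of these factors is tied to growth, and most of their genes are expressed in every cell.

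Over the genes of the table, libraries held 12.7 to 22.4 M reads in EMM and 16.8 to 33.7 M in SOM. These reads were recovered from the normalized counts. Levels are normalized counts, read counts divided by a size factor for each library, and differences are SOM minus EMM on the scale of log2(normalized count + 1), fitted with limma over all 14249 genes that reached 10 normalized counts in at least 4 libraries. A gene was called at a Benjamini-Hochberg adjusted p below 0.05. All 8 mesenchyme markers were present in both groups, and all 8 were called, 3 higher in SOM and 5 in EMM. Pdgfra was at 11332 normalized counts in EMM and 8572 in SOM (difference -0.40). Prrx1 and Twist1 were higher in SOM by 0.12 and 0.32, and Col1a1 was higher in EMM (difference -1.77).

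Of the 65 genes, 61 passed the filter. In SOM, 36 of the 61 were higher (59.0%, against 36.0% of all genes tested), 11 were higher in EMM (18%, against 36.1%) and 14 were not called. Called genes were thus 47 of 61, or 77.0%, against 72.1% of all genes tested. The median difference of the 61 was 0.19, and that of all genes tested was 0.01. The libraries of the groups did not overlap for 46 of the 61 (75.4%, against 66.1% of all genes tested). The differences were small, from -0.87 to 0.66, and 0 of the 61 reached 2-fold, whereas 16.3% of all genes tested did. Among genes with a mean of at least 1000 normalized counts, 31 of 50 factor genes were higher in SOM (62.0%, against 41.8%) and 7 in EMM (14.0%, against 36.4%). In bulk samples such as these, fewer cells of a type and less RNA per cell cannot be told apart.

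**Figure D1:**
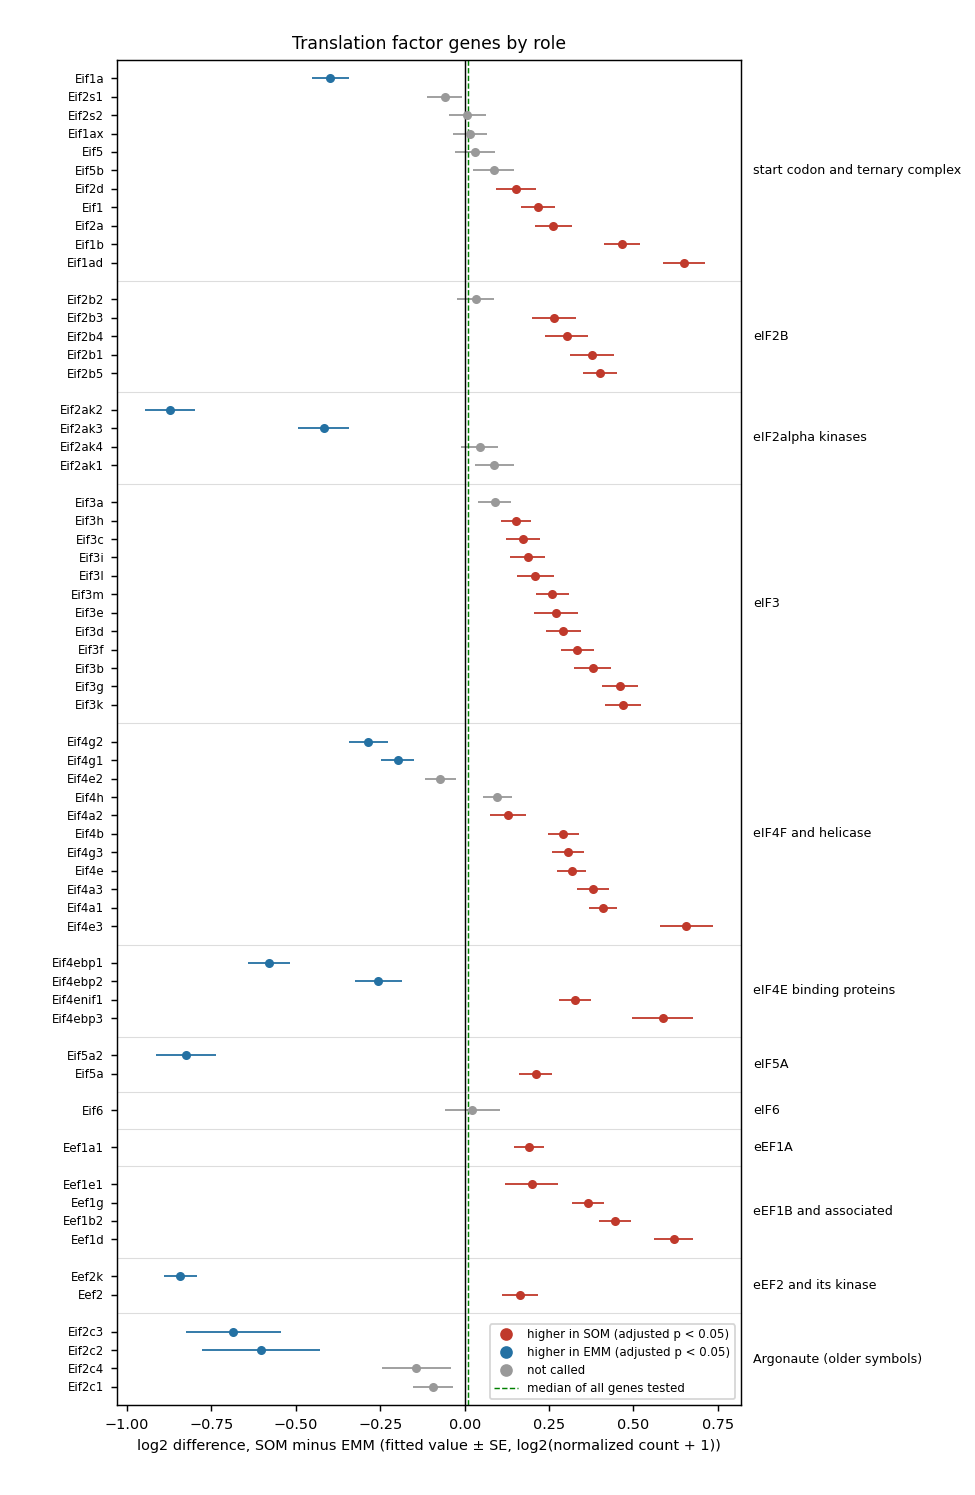
Fitted difference of the 61 tested factor genes (log2 scale, SOM minus EMM, points with SE), grouped by role and coloured by call, with the median of all genes as a dashed line. Most genes of eIF2B, eIF3 and eEF1B lie to the right (higher in SOM), while Eif2ak2, Eef2k and Eif5a2 lie farthest to the left at -0.87, -0.84 and -0.82.

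Markers of other cell types and of dividing cells also differed between the groups. All 15 cell division genes were higher in SOM, with a median difference of 0.55 and a summed level of 56106 to 63709 normalized counts in EMM and 87287 to 89415 in SOM. All 10 macrophage genes were higher in EMM, with summed levels of 11166 to 13960 against 2680 to 3084. The 8 tested genes of red blood cells were also all higher in EMM, with sums of 152469 to 424567 against 81906 to 99421, while Hba-a1 and Hba-a2 were listed at 0 in every library. Of 5 pericyte genes, 4 were higher in EMM and 1 in SOM (sums 55244 to 62142 against 8116 to 9930), and of 5 endothelial genes the counts were also 4 and 1 (12641 to 16472 against 9383 to 11090). Muscle genes gave 6 of 7 higher in EMM and 0 in SOM (485 to 690 against 161 to 202, with Myf5 at 0), and surface ectoderm genes 2 of 7 and 0 (761 to 1000 against 232 to 436). Neuron genes gave 5 of 9 higher in SOM and 3 in EMM (1477 to 1945 against 3217 to 3450), and brain progenitor genes 1 of 4 and 2 (151 to 488 against 783 to 1040). The part of these cell types and of cell division in the differences below was not tested.

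Per kilobase of exon, with the length taken over all annotated protein-coding transcripts, the levels spanned several orders of magnitude. Eef1a1, which delivers aminoacyl tRNAs to the ribosome, stood highest at 86739 ± 4417 normalized counts per kb in EMM and 98899 ± 1695 in SOM (SD, n = 4 in each group, as throughout). Eef2 followed at 16731 ± 694 and 18762 ± 1216, then Eif4a1, the main cap helicase, at 13575 ± 216 and 18038 ± 492, and Eef1g, an eEF1B subunit, at 10859 ± 359 and 13990 ± 727. In EMM these neighbours in the order were separated by more than their spread, while in SOM Eef2 and Eif4a1 differed by less than the sum of their SDs. The tested eIF3 subunits lay together, between 1770 and 4968 per kb in EMM and between 2049 and 5523 in SOM. The eIF2alpha kinases (141 to 418 per kb in EMM) and the eIF2B subunits (128 to 700) were low, and Eif5a2, at 119 per kb in EMM and 67.1 in SOM, was the lowest translation factor that passed the filter.

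**Figure D2:**
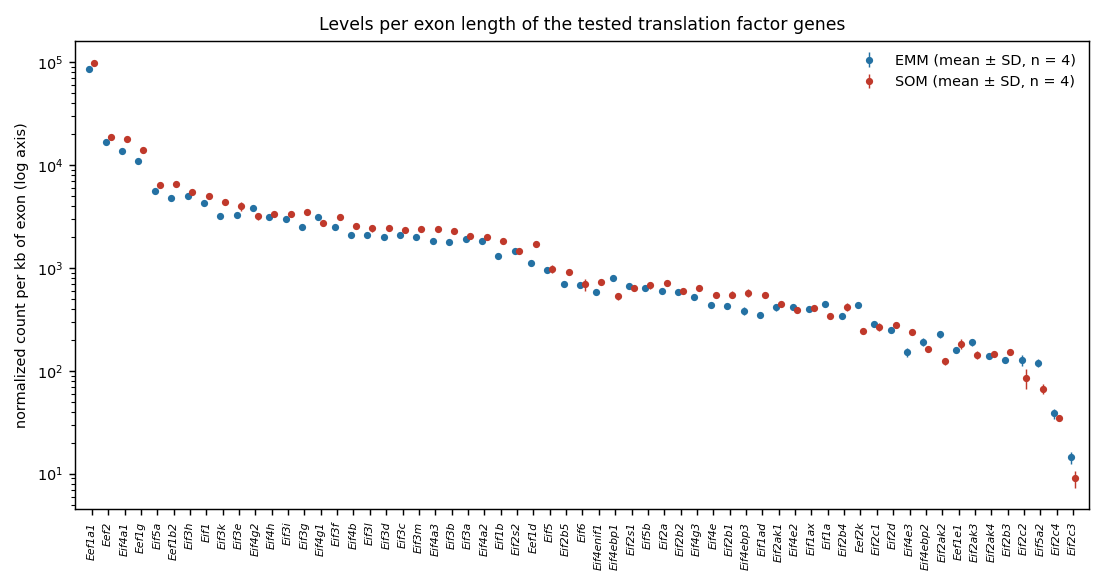
Level of each factor gene that passed the filter as normalized counts per kilobase of exon (log axis, group mean ± SD, n = 4), ordered by the mean over all libraries, for EMM and SOM. Eef1a1 stands alone at the top at 86739 and 98899 per kb, and Eif5a2 at 119 and 67.1 is the lowest apart from the Argonaute symbols.

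All 65 genes together took 2.18%, 2.26%, 2.17% and 2.22% of the reads of EMM libraries 1 to 4, and 2.69%, 2.66%, 2.69% and 2.68% of those of SOM libraries 1 to 4. The group means were 2.21% ± 0.043 and 2.68% ± 0.013, and every SOM library was above every EMM library. Eef1a1 alone took 0.763% ± 0.039 in EMM and 0.940% ± 0.011 in SOM. The eIF3 genes took 0.264% ± 0.0060 in EMM and 0.340% ± 0.0043 in SOM. All these shares are of the reads recovered over the genes of the table. A share of reads also moves with the other genes of a library, and the 8 mesenchyme markers, of which the 3 collagens are the most abundant, summed to 882034 to 1018760 normalized counts in EMM and 366077 to 424184 in SOM.

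RefSeq promoter windows on GRCm38.p6 were found for 50 of the 65 genes, and the 8 below, chosen among windows that hold a motif, are shown as examples from genes called in each direction. They are not the genes with the largest differences throughout, and many other windows hold none of the motifs. Each line runs from 100 bases before to 30 after the annotated start, in the direction of transcription, with motifs in capitals. The first 4 belong to genes higher in SOM, which encode the translocase Eef2 (chr10:81176531-81176660, plus strand), the eEF1B subunit Eef1b2 (chr1:63176731-63176860, plus), the eIF3 subunit Eif3f (chr7:108934315-108934444, plus) and the cap-binding Eif4e (chr3:138527168-138527297, plus). The next 4 belong to genes higher in EMM, which are the eEF2 kinase gene Eef2k (chr7:120842731-120842860, plus), the kinase gene Eif2ak2 (chr17:78882543-78882672, minus), Eif5a2 (chr3:28781177-28781306, plus) and the scaffold gene Eif4g1 (chr16:20672627-20672756, plus). For Eef2k and Eif4e the table lists more than 1 start, and the one with a motif is printed.
Eef2: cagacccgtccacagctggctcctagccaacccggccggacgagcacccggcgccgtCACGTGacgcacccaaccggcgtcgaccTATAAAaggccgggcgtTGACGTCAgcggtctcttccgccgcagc
Eef1b2: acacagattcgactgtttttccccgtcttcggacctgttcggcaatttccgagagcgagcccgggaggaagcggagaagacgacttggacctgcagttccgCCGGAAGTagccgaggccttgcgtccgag
Eif3f: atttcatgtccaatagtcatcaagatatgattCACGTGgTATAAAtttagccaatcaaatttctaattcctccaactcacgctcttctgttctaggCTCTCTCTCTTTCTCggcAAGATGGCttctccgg
Eif4e: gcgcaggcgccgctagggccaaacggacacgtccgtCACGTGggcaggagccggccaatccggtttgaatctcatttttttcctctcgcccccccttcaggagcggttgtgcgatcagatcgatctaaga
Eef2k: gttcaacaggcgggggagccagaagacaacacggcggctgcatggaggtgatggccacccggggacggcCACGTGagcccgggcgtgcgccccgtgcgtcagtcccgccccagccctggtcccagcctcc
Eif2ak2: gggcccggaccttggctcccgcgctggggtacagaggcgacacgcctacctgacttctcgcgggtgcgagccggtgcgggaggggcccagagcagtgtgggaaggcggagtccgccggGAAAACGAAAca
Eif5a2: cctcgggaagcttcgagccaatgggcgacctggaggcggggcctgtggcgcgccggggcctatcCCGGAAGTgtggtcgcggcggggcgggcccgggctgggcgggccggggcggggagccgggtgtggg
Eif4g1: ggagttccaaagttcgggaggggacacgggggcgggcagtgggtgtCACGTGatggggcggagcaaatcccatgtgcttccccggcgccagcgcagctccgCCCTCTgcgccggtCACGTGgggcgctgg
The capitals mark the E-box CACGTG in Eef2, Eif3f, Eif4e, Eef2k and, at 2 places, Eif4g1, the cyclic AMP element TGACGTCA and a TATAAA in Eef2, a TATAAA and the YY1 motif AAGATGGC in Eif3f, the ETS motif CCGGAAGT in Eef1b2 and Eif5a2, and an interferon-stimulated response element (ISRE, GAAA and a second GAAA with 2 bases of any kind between them) in Eif2ak2. They also mark the run of pyrimidines at the start of Eif3f and Eif4g1, where a C followed by at least 4 pyrimidines begins within 5 bases of the start, the form known from mRNAs under mTORC1 control.

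Motifs were searched on both strands from 250 bases before to 30 after the start, except the pyrimidine start, which was read on the gene's strand. The E-box was in 12 of the 50 genes (24.0%), against 7.71% of 27025 RefSeq genes and 11.1% of the 10505 tested genes with a window. It stood at genes called in SOM (Eef2, Eif1b, Eif3f, Eif3k, Eif4a1, Eif4e and Eif5a), in EMM (Eef2k, Eif4g1 and Eif5a2) and in neither (Eif3a and Eif4h). The ETS motif was in 9 (18%, against 4.12% and 8.0%). Of these, Eef1b2, Eif2b4, Eif3d, Eif3l and Eif5a were called in SOM, Eif5a2 in EMM, and Eif2ak1, Eif2b2 and Eif4e2 in neither. The pyrimidine start was in 13 (26.0%, against 21.2% and 23.7%), which did not share a direction. Those called in SOM were Eef1a1, Eif1ad, Eif2b5, Eif3b, Eif3f, Eif3l and Eif4enif1. Eif2ak3 and Eif4g1 were called in EMM, and Eif2ak1, Eif2ak4, Eif2b2 and Eif2c4 in neither. The count of pyrimidine starts depends on the annotated starts, whose accuracy was not tested. In the printed Eef2 line such a run (ctcttcc) lies farther downstream and was not counted. The ISRE was in 3 (6.00%, against 3.80% and 3.34%), TATAAA in 4 (8.0%, against 15.1% and 8.45%), the YY1 motif in 2 (4.00%, against 2.66% and 3.78%) and the cyclic AMP element in 1 (2.0%, against 1.99% and 3.40%). A match of letters is a description and shows no binding.

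Among the genes that bring the initiator tRNA and find the start codon, 5 of 11 were higher in SOM, 1 in EMM and 5 were not called, with a median difference of 0.09. That is 45.5% higher in SOM and 9.09% in EMM, against 36.0% and 36.1% of all genes tested. Called genes were 54.5%, against 72.1% of all genes tested. Eif1, the gatekeeper of start codon choice, had 7586, 8292, 8131 and 8334 normalized counts in EMM and 8806, 9811, 9230 and 9780 in SOM. All SOM libraries were above all EMM libraries, and the difference was 0.22 (SE 0.05, limma adjusted p = 0.000967). Its close relative Eif1b also rose, from 1423, 1488, 1433 and 1595 to 2094, 2147, 1986 and 1972 (difference 0.47, SE 0.053, limma adjusted p = 8.95e-07). Eif1ad, which encodes a protein with a domain like that of eIF1A, had 856, 833, 968 and 922 in EMM and 1403, 1484, 1441 and 1290 in SOM. This was the largest difference of the group (0.65, SE 0.063, limma adjusted p = 1.2e-07), and on GRCm38 the gene (chromosome 19, 5366741 to 5371526) shares exonic bases with Banf1.

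Of the eIF2 complex itself, the alpha and beta subunit genes were read here, and neither was called. Eif2s1, the alpha subunit that stress kinases phosphorylate, had 2373, 2281, 2208 and 2271 normalized counts in EMM and 2241, 2328, 2177 and 2031 in SOM, with a 95% interval of the difference from -0.17 to 0.05. Eif2s2, the beta subunit, gave an interval from -0.11 to 0.12. For Eif5, which triggers GTP hydrolysis by eIF2, the interval ran from -0.10 to 0.16, and for Eif5b, which joins the subunits, from -0.04 to 0.21. These intervals leave out changes as large as that of Eif1b. Eif2a and Eif2d, whose proteins can bring tRNA to the ribosome without eIF2, were higher in SOM by 0.26 (SE 0.055, limma adjusted p = 0.000423) and 0.15 (SE 0.058, limma adjusted p = 0.0275), and Eif2d lost its call when EMM library 1 or 3 or SOM library 1 or 3 was left out.

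The pair Eif1a and Eif1ax, paralogs that encode eIF1A, gave different calls. Their coding sequences were 85.6% identical over 432 aligned bases, the whole of Eif1ax but only part of the 762 bases of Eif1a. Eif1a had 1849, 1798, 1783 and 2028 normalized counts in EMM and 1347, 1420, 1392 and 1497 in SOM. It was higher in EMM in every library, with a difference of -0.40 (SE 0.056, limma adjusted p = 7.92e-06). Eif1ax stayed between 1919 and 2140 in EMM and between 2031 and 2182 in SOM (difference 0.02, 95% interval -0.09 to 0.12). Within a library, Eif1a per kb was 111.8% ± 6.93 of Eif1ax in EMM and 83.8% ± 5.11 in SOM.

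The exchange factor eIF2B, which recharges eIF2 with GTP and is the step blocked by phosphorylated eIF2alpha, had 4 of 5 subunit genes higher in SOM, 0 in EMM and 1 not called, with a median of 0.30. That is 80.0% higher in SOM, against 36.0% of all genes tested, over only 5 genes. Eif2b5, the catalytic epsilon subunit, rose from 1690, 1793, 1852 and 1928 normalized counts to 2423, 2397, 2427 and 2331 (difference 0.40, SE 0.051, limma adjusted p = 2.64e-06). Eif2b1, Eif2b4 and Eif2b3 were higher by 0.38, 0.30 and 0.27. Eif2b2 was the exception at 896 to 969 in EMM and 913 to 987 in SOM (difference 0.03, 95% interval -0.08 to 0.15).

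Of the 4 kinases that phosphorylate eIF2alpha, 2 were higher in EMM, 0 in SOM and 2 were not called, and with so few genes this count is not set apart from the 36.1% of all genes that were higher in EMM. Eif2ak2 encodes PKR, an interferon-induced kinase that senses double-stranded RNA. It had 1099, 916, 927 and 972 normalized counts in EMM and 543, 565, 476 and 551 in SOM. The lowest EMM library was above the highest SOM library by a wide gap, and the difference of -0.87 (SE 0.073, limma adjusted p = 2.31e-08), or 1.83-fold, was the largest among the 61 genes. The gene lies on chromosome 17 of GRCm38 from 78852564 to 78882573 on the minus strand, and shares exonic bases with Gm26637.

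Eif2ak3 encodes PERK, the kinase of the endoplasmic reticulum stress response. Its levels were 976, 819, 935 and 952 in EMM and 700, 595, 719 and 743 in SOM, without overlap (difference -0.42, SE 0.076, limma adjusted p = 0.000124). Eif2ak1, the heme-regulated kinase of red cell precursors, had 1628 to 1964 in EMM and 1885 to 1939 in SOM (difference 0.09, 95% interval -0.03 to 0.21). Eif2ak4, the GCN2 kinase that responds to amino acid shortage, had 963 to 1065 and 1005 to 1105 (difference 0.04, 95% interval -0.07 to 0.16). With libraries scaled to their total counts, which moved the median of all genes by 0.11 toward SOM, both of these were called higher in SOM (limma adjusted p = 0.00445 for Eif2ak1 and 0.0159 for Eif2ak4), while the direction of Eif2ak2 and Eif2ak3 was kept.

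**Figure D3:**
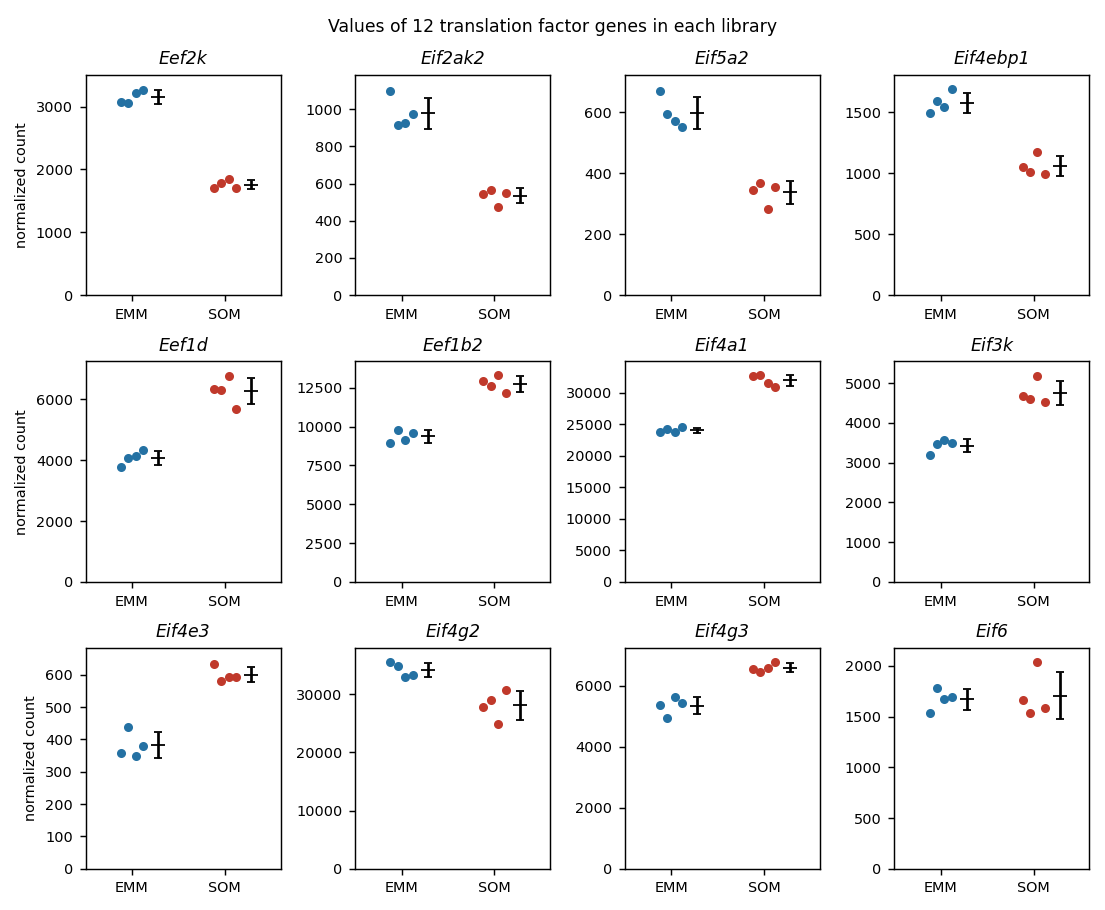
Normalized counts of selected factor genes in each library (points in replicate order 1 to 4, horizontal mark the group mean, bars the SD, linear axes). Eef2k, Eif2ak2, Eif5a2 and Eif4ebp1 are lower in all 4 SOM libraries than in any EMM library.

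The eIF3 complex, the large scaffold that binds the small subunit and recruits mRNA, was higher in SOM in nearly all its subunit genes. Of 12 tested subunit genes, 11 were higher in SOM (91.7%, against 36.0% of all genes tested) and 0 in EMM. The median difference was 0.26. Eif3k led, with 3186, 3477, 3574 and 3494 normalized counts in EMM and 4674, 4612, 5186 and 4538 in SOM (difference 0.47, SE 0.054, limma adjusted p = 9.02e-07). Eif3g, an RNA-binding subunit, followed with 2661 to 2914 and 3523 to 4131 (difference 0.46, SE 0.053, limma adjusted p = 1.05e-06). Eif3b, a core subunit, had 5041 to 5692 in EMM and 6603 to 7397 in SOM (0.38), and Eif3f, a peripheral subunit, 5808 to 6533 and 7693 to 8339 (0.33). Eif3d, Eif3e, Eif3m, Eif3l, Eif3i, Eif3c and Eif3h ranged from 0.29 down to 0.15. In each of these 7 the groups did not overlap, which also held for 66.1% of all genes tested.

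Eif3a, the largest core subunit, was the one tested eIF3 gene not called. It had 9872, 9312, 10262 and 10052 normalized counts in EMM and 10242, 10259, 10280 and 11228 in SOM (difference 0.09, 95% interval -0.01 to 0.19, limma adjusted p = 0.109). Scaled by TMM, by the upper quartile or by the total count it was called higher in SOM, with an adjusted p down to 0.000857. Eif3j1 was listed at 0 in every library and Eif3j2 had 1 read, in SOM library 2. Their coding sequences were identical over 783 aligned bases, so that reads cannot be placed on one of them by coding sequence alone, and no level is given for this subunit.

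In the eIF4F group of cap-binding, scaffold and helicase genes, SOM was higher for 7 of 11 tested genes, EMM for 2 and neither for 2, with a median of 0.29. The shares of 63.6% in SOM and 18.2% in EMM stood against 36.0% and 36.1% of all genes tested. Eif4a1 had 23734, 24286, 23789 and 24520 normalized counts in EMM and 32616, 32815, 31617 and 30953 in SOM. The libraries of each group lay close together and far from the other group (difference 0.41, SE 0.042, limma adjusted p = 2.26e-07). Its paralog Eif4a2, 78.2% identical in coding sequence, had a smaller fitted difference, at 5322 to 6227 in EMM and 6153 to 6625 in SOM (difference 0.13, SE 0.053, limma adjusted p = 0.0417). The Eif4a2 groups overlapped, and it lost its call when the filter was dropped or when EMM library 3 or 4 or SOM library 1, 2 or 4 was left out. Eif4a2 shares exonic bases with Rfc4. Eif4a3, the helicase of the exon junction complex, was higher in SOM by 0.38 (SE 0.048, limma adjusted p = 2.32e-06), and Eif4b, which stimulates eIF4A, by 0.29 (SE 0.045, limma adjusted p = 2.38e-05). Eif4h, with a similar role, was at 8385 to 8808 and 9006 to 9538 with a difference of 0.10 (limma adjusted p = 0.0551), and was called in 6 of the 18 alternatives.

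Of the 3 tested cap-binding genes, 2 were called higher in SOM and 1 was not called, too few to set apart from the 36.0% of all genes. Eif4e, the canonical cap-binding factor, had 2682, 2601, 2649 and 2582 normalized counts in EMM and 3362, 3274, 3189 and 3273 in SOM (difference 0.32, SE 0.044, limma adjusted p = 7.04e-06). Eif4e3 gave the largest rise in SOM among the 61 genes, from 359, 439, 349 and 380 to 635, 580, 594 and 592 (difference 0.66, SE 0.078, limma adjusted p = 1.34e-06), and shares exonic bases with Gm20696. Eif4e2, whose protein 4EHP binds the cap without eIF4G and represses translation, had 3061 to 3158 in EMM and 2810 to 3076 in SOM (difference -0.07, 95% interval -0.17 to 0.03). Per kb, Eif4e2 was 93.9% ± 2.87 of Eif4e in EMM and 71.7% ± 3.64 in SOM, while Eif4e3 went from 34.5% ± 4.05 to 43.5% ± 1.25, each without overlap.

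The scaffold genes split as well. Eif4g2, which encodes DAP5, a scaffold that lacks the eIF4E site and serves cap-independent initiation, had 35521, 34730, 32912 and 33232 normalized counts in EMM and 27734, 28889, 24888 and 30638 in SOM. It was higher in every EMM library, with a difference of -0.29 (SE 0.057, limma adjusted p = 0.000309). Eif4g1, the main scaffold, had 18608 to 20089 in EMM and 15988 to 17842 in SOM (difference -0.20, SE 0.049, limma adjusted p = 0.00186), a call lost under total-count scaling (limma adjusted p = 0.0966). Eif4g3, its paralog with 68.1% coding identity, went the other way, from 5378, 4951, 5616 and 5427 to 6555, 6464, 6575 and 6792 (difference 0.31, SE 0.048, limma adjusted p = 2.68e-05). Relative to Eif4g1 per kb, Eif4g3 stood at 16.7% ± 0.44 in EMM and 23.6% ± 0.99 in SOM, and Eif4g1 relative to Eif4a1 at 22.9% ± 0.91 and 15.1% ± 1.26.

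The 4 genes whose proteins bind eIF4E were all called, against 72.1% of all genes tested, and 2 were higher in each population. Over so few genes, neither count is set apart from the 36.0% (SOM) and 36.1% (EMM) among all genes tested. Eif4ebp1, the best known translational repressor downstream of mTORC1, had 1492, 1591, 1545 and 1688 normalized counts in EMM and 1050, 1010, 1176 and 992 in SOM. Every EMM library was above every SOM library (fitted difference -0.58, SE 0.062, limma adjusted p = 4.04e-07). Eif4ebp2 was lower in SOM by less, with overlapping libraries of 998 to 1243 and 887 to 1014 (difference -0.26, SE 0.069, limma adjusted p = 0.00331), and its call was lost under total-count scaling (limma adjusted p = 0.0696). Eif4ebp3 rose in SOM, from 259, 275, 282 and 319 to 421, 451, 465 and 371 (difference 0.59, SE 0.091, limma adjusted p = 2.27e-05), and shares exonic bases with AC115631.1. Eif4enif1, which carries eIF4E into the nucleus and to P-bodies, was higher in SOM by 0.33 (SE 0.047, limma adjusted p = 1.16e-05).

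The repressor genes were also set against Eif4e within each library. Eif4ebp1 per kb was 166%, 183%, 174% and 195% of Eif4e in EMM libraries 1 to 4, and 93.4%, 92.2%, 110.2% and 90.6% in SOM libraries 1 to 4. The SOM mean of this ratio was 0.537 of the EMM mean. Eif4ebp2 stood at 43.8% ± 3.64 of Eif4e in EMM and 29.4% ± 1.88 in SOM, without overlap. Eif4ebp3 stood at 86.7% ± 9.08 and 104.7% ± 11.4, with overlapping libraries.

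eIF5A, the hypusine-bearing factor that relieves stalled ribosomes, is encoded by 2 genes with 73.2% coding identity that changed in opposite directions. Eif5a, the abundant form, had 12949, 13478, 13291 and 13250 normalized counts in EMM and 15080, 14705, 16683 and 14867 in SOM (difference 0.21, SE 0.048, limma adjusted p = 0.000908). Eif5a2, the minor form, had 669, 595, 570 and 552 in EMM and 345, 367, 283 and 354 in SOM, with no overlap (difference -0.82, SE 0.089, limma adjusted p = 4.56e-07, 1.77-fold). Per kb, Eif5a2 was 2.44%, 2.09%, 2.03% and 1.97% of Eif5a in the EMM libraries and 1.08%, 1.18%, 0.801% and 1.13% in the SOM libraries. The SOM mean of the ratio was 0.491 of the EMM mean. Eif6, which keeps the large subunit from joining too early, was at 1533 to 1784 in EMM and 1537 to 2042 in SOM (difference 0.02, 95% interval -0.15 to 0.20).

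All 6 tested genes of eEF1A, eEF1B with its partners and eEF2 were higher in SOM, against 36.0% of all genes tested. Eef1a1 had 173421, 187456, 165871 and 175836 normalized counts in EMM and 201296, 195212, 202815 and 201761 in SOM (difference 0.19, SE 0.046, limma adjusted p = 0.00134), and shares exonic bases with Gm26377. Eef1a2, the form of adult muscle and neurons, had 5 reads over the EMM libraries and 1 over the SOM libraries and was below the filter. The 4 genes of the exchange factor eEF1B and its partners all rose, with a median of 0.41. Eef1d led, from 3778, 4067, 4132 and 4341 to 6334, 6297, 6753 and 5690 (difference 0.62, SE 0.057, limma adjusted p = 7.22e-08), and lies at 75894205 to 75909556 of chromosome 15, with exonic bases in common with Naprt.

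Eef1b2 had 8931, 9776, 9153 and 9593 normalized counts in EMM and 12958, 12611, 13303 and 12143 in SOM (difference 0.45, SE 0.047, limma adjusted p = 3.5e-07), and shares exonic bases with Ndufs1. Eef1g rose by 0.36 (SE 0.048, limma adjusted p = 4.03e-06), and Eef1e1, whose product belongs to the multi-tRNA synthetase complex, by 0.20 (SE 0.078, limma adjusted p = 0.0309). The Eef1e1 groups nearly touched, with 402 to 411 in EMM and 411 to 521 in SOM, and Eef1e1 lost its call in DESeq2 and when EMM library 3 or 4 or SOM library 1 or 2 was left out. Relative to Eef1a1 per kb, Eef1b2 was 5.57% ± 0.19 in EMM and 6.65% ± 0.25 in SOM, without overlap.

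Eef2 and the kinase that inactivates its product moved apart. Eef2 had 48663, 51738, 52808 and 53523 normalized counts in EMM and 55419, 54067, 60919 and 61416 in SOM, a small rise without overlap (difference 0.16, SE 0.052, limma adjusted p = 0.0098). Without EMM replicates 2 and 3 and SOM replicate 4, in which surface ectoderm or immediate early genes stood apart in an earlier analysis of the same table, its adjusted p was 0.0651. Eef2k, the calcium- and calmodulin-dependent kinase of eEF2, had 3079, 3049, 3223 and 3264 in EMM and 1697, 1775, 1853 and 1708 in SOM. The libraries within each group lay close together, and the difference of -0.84 (SE 0.049, limma adjusted p = 2.74e-10), 1.79-fold, had the smallest adjusted p of the 61 genes. Eef2k lies on chromosome 7 of GRCm38 from 120842831 to 120907450 on the plus strand and shares exonic bases with Gm15774.

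Per kb, Eef2k stood at 2.72%, 2.53%, 2.62% and 2.62% of Eef2 in EMM libraries 1 to 4 and at 1.32%, 1.41%, 1.31% and 1.20% in SOM libraries 1 to 4. The ratio in SOM was 0.498 of that in EMM. Eif2ak2 relative to its substrate gene Eif2s1 went from 33.8% ± 2.03 to 19.2% ± 1.70, also without overlap. These ratios are taken within a library and so do not depend on how libraries were scaled to each other.

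**Figure D4:**
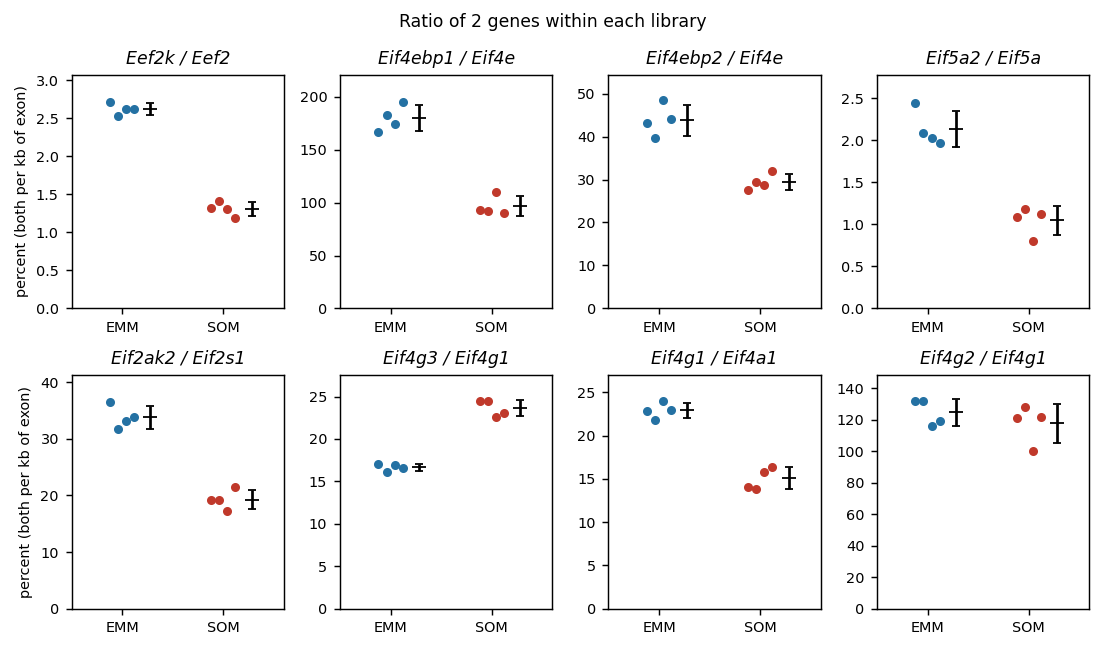
Ratios of pairs of factor genes within each library (percent, per kilobase of exon, linear axes, points in replicate order 1 to 4, horizontal mark the group mean, bars the SD). Eef2k over Eef2, Eif5a2 over Eif5a and Eif4ebp1 over Eif4e fall in SOM to 0.498, 0.491 and 0.537 of their EMM means.

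The 4 symbols Eif2c1 to Eif2c4 are older names of the Argonaute genes Ago1 to Ago4, per RefSeq synonyms, whose proteins bind small RNAs and are no initiation factors. Of these, 2 were higher in EMM, 0 in SOM and 2 were not called. With only 4 genes, this count is not set apart from the 36.1% of all genes that were higher in EMM. Eif2c2, which encodes the slicing Argonaute, had 1847, 1497, 1989 and 1721 normalized counts in EMM and 994, 1378, 907 and 1430 in SOM, where libraries 2 and 4 were higher than 1 and 3 (difference -0.60, SE 0.17, limma adjusted p = 0.0158). Eif2c3 had 258, 192, 246 and 218 in EMM and 137, 159, 107 and 168 in SOM (difference -0.69, SE 0.14, limma adjusted p = 0.000405). For Eif2c1 the 95% interval of the difference ran from -0.22 to 0.03, and for Eif2c4 from -0.36 to 0.07. Without the Argonaute genes, 36 of 57 were higher in SOM (63.2%, against 36.0% of all genes) and 9 in EMM (15.8%, against 36.1%). The other 12 were not called, and the median was 0.20. Eif4e1b, the cap-binding gene of oocytes, was listed at 0 in all libraries.

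A list of 69 other genes of the translation pathway was read from the same fit, and 35 were higher in SOM (50.7%, against 36.0% of all genes), 4 in EMM (5.80%, against 36.1%) and 30 were not called, with a median of 0.16. Without SOM replicate 4, 7 were higher in EMM. Outside the stress response genes, 0 were higher in EMM. The counts higher in SOM were 6 of 8 enzymes that make hypusine on eIF5A or diphthamide on eEF2, 5 of 9 termination and recycling factors, 4 of 9 mitochondrial factors, 3 of 6 poly(A)-binding proteins and their regulators, 6 of 13 mTORC1 and S6 kinase genes and 7 of 11 other factors. Wdr85, an older symbol of the diphthamide gene Dph7, led its subgroup at 0.50 (SE 0.074, limma adjusted p = 1.39e-05). Eefsec, the elongation factor for selenocysteine, had a difference of 0.52, Mcts2, a recycling factor gene, 0.51, Tufm, the mitochondrial counterpart of eEF1A, 0.43, and Paip2, a repressor of poly(A)-binding protein, 0.41, with limma adjusted p between 1.73e-06 and 0.000174. Ddit4, a stress-induced inhibitor of mTORC1, was the 1 gene of the list past 2-fold, at 891, 891, 673 and 1038 normalized counts in EMM and 2035, 1842, 1665 and 1479 in SOM (difference 1.01, SE 0.14, limma adjusted p = 0.000232).

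The 13 genes of the integrated stress response, the program run by phosphorylated eIF2alpha, gave 4 higher in SOM, 4 in EMM and 5 not called. That is 30.8% in each direction, near the 36.0% and 36.1% of all genes tested, and the median difference was -0.13. All called genes are named here, most of them after their values were seen. Asns, the asparagine synthetase gene and a target of ATF4, was higher in SOM, at 685 to 769 against 970 to 1035 normalized counts (difference 0.48, SE 0.058, limma adjusted p = 1.45e-06). Atf4 itself, the central transcription factor, had a difference of 0.41, Ddit3, which encodes CHOP, 0.36, and Gcn1l1, an activator of the GCN2 kinase, 0.21. Trib3, another target of the program, was higher in EMM, with 119, 174, 191 and 156 against 73.0, 79.1, 83.6 and 96.8 (difference -0.92, SE 0.15, limma adjusted p = 3.88e-05). Dnajc3, a chaperone gene whose product inhibits PKR and PERK, had 2598, 2200, 2287 and 2329 in EMM and 1308, 1245, 1455 and 1471 in SOM (difference -0.78, SE 0.065, limma adjusted p = 2.16e-08). Impact, which encodes an inhibitor of GCN2 activation, and Nck1, an adaptor gene, were higher in EMM with differences of -0.21 and -0.36.

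In the authors' deposited table, 36 of the 65 genes were higher in SOM and 11 in EMM at the same threshold, 15 were above it and 3 had no adjusted p. Among tested genes, the call in the authors' deposited table differed from the limma fit for 2, Eef1e1 and Eif4h.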

How the data were processed

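RNA of 8 pools of cranial mesenchyme was sequenced. The tools bcl2fastq, STAR and DESeq2 and the build mm10 are listed, with no version or order, in the submitters' processing notes. Annotation, counter and strand setting were not given in the sources used here, so genes that share exonic bases may share reads. Besides those noted above, Eif1b shares them with D830035M03Rik, Eif2a with Serp1, Eif2ak1 with Aimp2 and Ankrd61, and Eif2ak3 with Gm43292. Eif2b4 shares them with Snx17, Eif2c2 with Chrac1, Eif2d with Rassf5, Eif3d with Gm17638 and Eif3m with Ccdc73. The same holds for Eif4e (Mir1956), Eif5b (Rev1), Eif6 (Gm16098), Eif3j1 (Gm47314 and Spg11) and Eif3j2 (Gm27325). In the authors' table the deposited signal of a library is a normalized count, in which each library's reads are scaled by 1 size factor. The authors also deposited a log2 fold change with its standard error, a Wald score, a p-value and an adjusted p-value per gene.

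Values were fitted here as log2(normalized count + 1) with limma 3.58.1 in R 4.3.3 (trend and robust moderation, no covariate, both groups). The filter was 10 normalized counts in at least 4 libraries, and Benjamini-Hochberg adjustment ran over all 14249 genes tested. The script was tested on simulated data. In every library 100% of values were whole multiples of 1 read within 1 ppm. On the recovered reads the quasi-likelihood test of edgeR 4.0.16 called 5252 genes higher in SOM and 5058 in EMM, against 5129 and 5149 in limma. DESeq2 1.42.0 was a further alternative. Alternatives to the pseudocount, filter and scaling and each library left out were also fitted. Libraries of a group differed beyond counting noise (chi-square per degree of freedom 3.72 to 19.0). Separate preparations of the same pool could also differ so, and this check cannot tell pools from preparations. Each of the 8 was counted as its own pool, and p-values measure the spread between pools, with that of preparation included. The reads carried no molecular identifiers.

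Levels per kb used the union of exons of all protein-coding transcripts of each gene in GENCODE M21 on GRCm38. The order of levels and the size of ratios between genes thus depend on the annotation. In the change of a ratio from EMM to SOM the length cancels. Coding identity came from its transcripts, aligned with Biopython 1.88. Promoters came from RefSeq.

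The genes, lists, tests and alternatives were chosen with earlier results of these data known. Named genes were the 6 with the largest called difference in each direction, the most abundant gene and largest called differences of each role group, the paralog pairs, the eIF2alpha kinases and Eef2k, the genes below the filter, and the largest called differences of each subgroup of other translation genes. Others were named after their values were seen.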

Additional observations from a re-analysis of the deposited data

Results flagged for a closer look

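Of 86 sets of 4 libraries checked, 3 held a library far from the others, with a gap over the whole range above Dixon's 95% critical value, and chance alone passes that value in about 1 of 20 sets. Eif3a was at 11228 normalized counts in SOM replicate 4, against 10242 to 10280 in the other SOM libraries (gap over range 0.962). Eif1ax was at 1919 in EMM replicate 3, against 2104 to 2140 (0.839). Mcts2 was at 169 in EMM replicate 1, against 210 to 216 (0.859).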

How the results depend on the processing

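Of the 47 called factor genes, 40 kept their call and direction in all 18 alternatives (32 higher in SOM and 8 in EMM), and 0 called differences changed sign. Counts ran from 33 to 43 higher in SOM and from 9 to 12 in EMM, with the extremes 43 and 9 under total-count scaling. The median difference of the factor genes, 0.19 as reported, was 0.21 with TMM, 0.22 with upper quartile and 0.30 with total-count scaling, and ran from 0.17 to 0.20 with each library left out, the lowest without EMM replicate 1. Against the median of all genes it was 0.177 both as reported and with total-count scaling. Scaling shifts all genes of a library together, so this value could hardly change and is no check. Under total-count scaling 2 eIF2alpha kinases were higher in SOM, 1 eIF4F gene in EMM and 1 eIF4E-binding gene in EMM. Without EMM replicates 2 and 3 and SOM replicate 4, an alternative chosen after seeing the data, 33 factor genes were higher in SOM and 12 in EMM, 0 genes of the eEF2 group were higher in SOM (Eef2 adjusted p = 0.0651 by limma) and 7 other translation genes were higher in EMM. That last count ran from 4 to 7 with each library left out, the highest without SOM replicate 4. Of the genes not called, 7 changed sign in some alternative, always without a call. Total-count scaling gave 0.0188 for Eif2c1, 0.0538 for Eif2s1 and 0.0399 for Eif4e2. With libraries left out, singly or the 3 together, Eif1ax ran from -0.0199 to 0.0324, Eif2s2 from -0.0313 to 0.0534 (-0.0225 without the 3), Eif5 from -0.0217 (without the 3) to 0.0812 and Eif6 from -0.0665 to 0.1067. Of the genes not called, 9 gained a call in at least 1 alternative, most often Eif4h (6) and Eif3a (3). Leaving out the Argonaute symbols was also added afterwards.

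Both groups carry the numbers 1 to 4, but libraries of the same number did not deviate together (correlations 0.126, 0.00993, 0.0419 and -0.0199), and not every library correlated best with its own number, so the numbers were not taken as pairs. With the replicate block, 36 factor genes were higher in SOM and 10 in EMM, and 1 Argonaute gene was called in EMM (Eif2c2 adjusted p = 0.0671 by limma).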
